A study of Mus musculus with 13 samples.

Results

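Macrophage marker RNA was examined in bulk tissue of mouse ovaries and of ovarian tumors. The 10 genes were Csf1r, Csf1, Adgre1, Cd68, Lyz2, C1qa, C1qb, C1qc, Mrc1 and Cd163, and each was found by its symbol once among the 53465 genes of the expression table. Together they cover the CSF1 receptor and its ligand, surface and lysosomal proteins of phagocytes, C1q chains and scavenger receptors. The WT group held 3 ovaries of untreated wild-type C57BL/6 mice. The MP group held 10 ovarian tumors of the genotype Myc;p53-/-, also untreated, from electroporation-based genetically engineered mice (EPO-GEMM). In these mice, ovaries of female C57BL/6 animals of 8 to 12 wk received a vector with Cas9 and a single-guide RNA against Trp53, together with a transposon that overexpresses MYC and a Sleeping Beauty transposase. The tumors were collected whole when the mice reached their end point, so both groups contain tumor or ovarian cells together with blood vessels, stroma and leukocytes. Electroporation reaches whichever cells surround the injected fluid, and no promoter restricts the edit to 1 cell type. The age of the WT mice at collection is not stated apart from that range.

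Macrophages are the tissue phagocytes of the ovary, where they clear regressing corpora lutea and atretic follicles, and they also enter tumors. Their survival depends on CSF1R, a receptor tyrosine kinase bound by the ligands CSF1 and IL-34. Tissue macrophages make the chains of C1q, the recognition protein that opens the classical complement pathway, and carry scavenger and lectin receptors such as CD163 and MRC1. The promoters of many macrophage genes contain sites for ETS-family factors, among them PU.1, the lineage factor encoded by Spi1.

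The C1q genes lie side by side on the minus strand of chromosome 4 of GRCm38, with C1qb at 136880129 to 136886187, C1qc at 136889804 to 136893065 and C1qa at 136895917 to 136898803. Promoters of C1qb (chr4:136886151-136886450) and C1qc (chr4:136892865-136893164), on the minus strand of GRCm38.p6, are shown because these neighboring genes encode chains of 1 protein, and their RNA proportions shifted against each other between tumors. Each sequence, from RefSeq, runs from 250 bases before the start of the RefSeq transcript to 50 bases after it. That start is 136886200 for C1qb, 13 bases upstream of the gene start in the expression table, and 136892914 for C1qc, 151 bases inside the gene as the table gives it. In the sequences, capitals mark GAGGAA, a core that ETS factors such as PU.1 bind, or its reverse complement.
C1qb: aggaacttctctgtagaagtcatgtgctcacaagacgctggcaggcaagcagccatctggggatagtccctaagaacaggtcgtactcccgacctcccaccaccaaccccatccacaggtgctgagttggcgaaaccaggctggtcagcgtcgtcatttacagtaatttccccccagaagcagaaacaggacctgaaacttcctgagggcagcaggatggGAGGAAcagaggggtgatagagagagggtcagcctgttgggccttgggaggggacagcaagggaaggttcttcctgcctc
C1qc: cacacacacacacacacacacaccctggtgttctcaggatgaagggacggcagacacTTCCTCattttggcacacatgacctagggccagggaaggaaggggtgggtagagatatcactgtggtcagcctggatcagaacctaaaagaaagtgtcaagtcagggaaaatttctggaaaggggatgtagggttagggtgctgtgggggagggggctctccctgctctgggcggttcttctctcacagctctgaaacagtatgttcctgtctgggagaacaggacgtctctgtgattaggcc
The core began 30 bases before the RefSeq start of C1qb and, on the other strand, 193 bases before that of C1qc. Of the 10 genes, 7 matched an entry among the RefSeq promoters, and Csf1r, Adgre1 and C1qa did not. GAGGAA was present on either strand in 4 of the 7 (Cd68, C1qb, C1qc and Mrc1), compared with 28.3% of 32817 mouse promoters of the same length. The TATA box core TATAAA was found in 0 of the 7 and in 13.6% of all promoters. CACGTG, an E-box that MYC binds, was found in 0 of the 7 and in 7.15% of all promoters. No searched motif holds another, and such matches describe letters only.

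Values are TPM, transcript abundances that are scaled by gene length and sum to 1000000 in each library, so that a gene's TPM also falls when other genes take more. Reads worked back from the table came to between 31445004 and 64013840 per WT ovary and between 3892690 and 19906507 per MP tumor, and the shallowest was MP tumor 5. The library identifiers carry 1 of 3 numbers, here called library series 1, 2 and 3. Series 1 held all WT ovaries and MP tumors 1 to 3, series 2 held MP tumors 4 to 6 and series 3 held MP tumors 7 to 10. What the numbers stand for is not stated, and outside series 1 the series cannot be told apart from the condition. In MP tumor 2, the 10 leading genes took 55.1% of all TPM, whereas they took between 7.92% and 20.6% in the other libraries. Trp53, the edited gene, was at 80.7 to 85.4 TPM in WT ovaries, at 4.30 to 26.0 TPM in MP tumors 1 to 9 and at 187 TPM in MP tumor 10. Small insertions and deletions made by Cas9 can leave the RNA in place, so this level does not check the label of a tumor.

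All 10 macrophage genes were detected in all 13 libraries, and 0 of them passed the test between the 10 MP tumors and the 3 WT ovaries without a term for library series. With library series as a covariate 7 of 10 fell, beside 49.4% of all genes, and within library series 1 it was 8 of 10, as given further on. Of the 17277 genes tested, 16.8% passed in either direction (14.3% lower and 2.51% higher in MP tumors). The test was limma on log2(TPM + 1) with a Benjamini-Hochberg adjusted P value threshold of 0.05. At an unadjusted P value under 0.05, the count was 5 of 10 genes beside 33% of all genes tested, and limma-voom on the reads worked back called 1 of 10, Csf1r, beside 33.4% of all genes. No gene of the 10 was without overlap between the groups (16.4% of all genes were lower and 3.02% higher in every tumor than in every ovary). The median log2 fold change of the 10 genes was −0.998, compared with −0.58 over all genes tested. Under median-of-ratios scaling these medians were −0.28 and −0.02. In bulk tissue, fewer macrophages and less of these RNAs in each macrophage cannot be told apart. The labels do not say that the samples came from separate mice, so P values measure the spread between these samples.

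**Figure D1:**
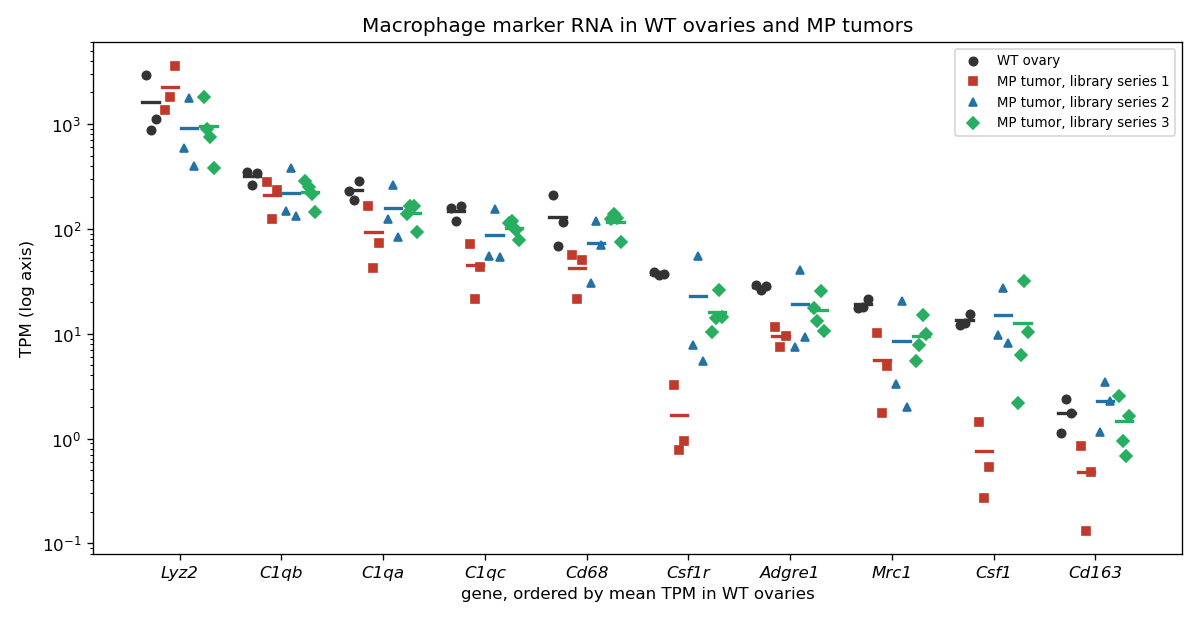
TPM of each macrophage gene (log axis) in every library. Points are libraries, split into 3 WT ovaries and MP tumors of library series 1, 2 and 3, and short lines are means of each set. Csf1r lies between 0.774 and 55.2 TPM across MP tumors and between 36.2 and 38.9 TPM in WT ovaries.

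The receptor of the CSF1 axis spanned a wide range among tumors and a narrow one among ovaries. Csf1r (ENSMUSG00000024621, on chromosome 18) was at 38.9, 36.2 and 37.2 TPM in the WT ovaries. In the MP tumors its lowest, median and highest values were 0.774, 9.12 and 55.2 TPM. It was below every ovary in 9 of 10 tumors and above every ovary in MP tumor 5, so the groups overlapped. Its mean was 37.4 ± 1.34 TPM (SD, n = 3) for the ovaries and 13.9 ± 16.4 TPM (SD, n = 10) for the tumors. The log2 fold change of −2.10 (SE 0.86) had an adjusted P value of 0.103 by limma and did not pass. Leaving out MP tumor 5 gave −2.39 with an adjusted P value of 0.0354, when 18.2% of all genes fell. Without MP tumors 2 and 5 together, Csf1r (−2.13) and C1qa (−0.93) passed, when 17.6% of all genes fell. MP tumor 2 held the lowest value, which rested on 21 reads. Csf1r overlaps Hmgxb3, which lies on the opposite strand, and the strand setting of the counting is not stated.

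Csf1 encodes the colony-stimulating factor that binds this receptor, and stromal, endothelial and tumor cells can also make it. The gene (ENSMUSG00000014599, chromosome 3, 107741048 to 107760469) was at 12.2, 12.6 and 15.5 TPM in WT ovaries. Its lowest, median and highest values in MP tumors were 0.273, 7.16 and 31.7 TPM. It was below every ovary in 8 tumors and above every ovary in MP tumors 5 and 9. Its log2 fold change of −1.16 (SE 0.89) gave an adjusted P value of 0.364, and it was −0.67 under median-of-ratios scaling, −0.31 under quantile normalization and −0.39 with the length trend removed. The lowest tumor, MP tumor 2, had 8 reads of Csf1. The highest tumor exceeded the lowest by 71.3-fold in Csf1r and by 116-fold in Csf1, and the standard deviations over tumors on the log2(TPM + 1) scale (1.58 and 1.64) stood at percentiles 90.2 and 91.8 of all genes tested. Among the 10 genes these were the 2 largest standard deviations, and the others lay between 0.55 and 1.06.

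Il34, the other ligand of CSF1R, did fall. It was at 17.6, 19.8 and 35.4 TPM in WT ovaries and at 0.184, 1.39 and 22.6 TPM (lowest, median and highest) in MP tumors. It was below every ovary in 9 of 10 tumors, and only MP tumor 5 reached the level of an ovary. The log2 fold change was −2.91 (SE 0.73) with an adjusted P value of 0.0138. Without WT ovary 2 or 3, adjusted P values of 0.0556 and 0.0951 did not pass. Of the 11 genes grouped with it as CSF1 axis and lineage factors, Il34 included, 10 were tested, 3 fell and 0 rose, beside 14.3% lower among all genes, with a median log2 fold change of −1.21 (−0.58 over all genes). The others that fell were Csf2rb, the shared receptor subunit for GM-CSF, IL-3 and IL-5 (−2.03, adjusted P value 0.0155), and the transcription factor gene Maf (−2.84, adjusted P value 0.0169). Maf did not pass without WT ovary 2 (0.0827) or 3 (0.104), and Csf2rb without WT ovary 1 (0.119) or 3 (0.0748).

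Adgre1, which encodes the surface antigen F4/80, was at 28.9, 26.2 and 28.6 TPM in WT ovaries. Its lowest, median and highest values in MP tumors were 7.41, 11.1 and 40.4 TPM. As with Csf1r, 9 of 10 tumors lay below every ovary and MP tumor 5 lay above. A log2 fold change of −1.03 (SE 0.48) did not pass, with an adjusted P value of 0.149. It shrank to −0.34 under median-of-ratios scaling, −0.25 under quantile normalization, −0.41 with the length trend removed and −0.37 by limma-voom. The gene (ENSMUSG00000004730) lies on chromosome 17 at 57358686 to 57483529 as the table gives it.

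Cd68 encodes a lysosomal glycoprotein of phagocytes (ENSMUSG00000018774, chromosome 11, 69664213 to 69666153). It was at 209.8, 68.6 and 115 TPM in WT ovaries and at 21.3, 72.6 and 139.9 TPM (lowest, median and highest) in MP tumors. The ovaries themselves differed by more than those of Csf1r or Adgre1, and 4 tumors were below all of them. The log2 fold change was −0.76 (SE 0.55) and its adjusted P value was 0.337, and by limma-voom the log2 fold change was 0.023 (adjusted P value 0.967). It was −0.35 without WT ovary 1 and −1.15 without WT ovary 2, and neither passed.

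Lyz2, which encodes lysozyme of macrophages, monocytes and neutrophils, was the most abundant of the 10 genes in both groups. The gene (ENSMUSG00000069516) is on chromosome 10 at 117277331 to 117282321. Levels were 2905, 871 and 1123 TPM in WT ovaries, with a wide gap between the first ovary and the others. In MP tumors the lowest, median and highest values were 383, 1128 and 3603 TPM, and the highest was MP tumor 3. The groups overlapped, with 4 tumors below every ovary and 1 above. The log2 fold change of −0.42 (SE 0.61, adjusted P value 0.635) became 0.09 without WT ovary 1, −0.77 without WT ovary 2, −0.27 and −0.26 without MP tumor 6 or 10, 0.30 under median-of-ratios scaling and 0.31 by limma-voom. Lyz1, a near-identical paralog with which Lyz2 may share reads, was between 0 and 10.4 TPM in all libraries. Summed TPM of the 7 neutrophil markers was 6.97 to 12.6 in WT ovaries and 6.18 to 68.5 in MP tumors. Of the 5 that were tested, 0 passed by limma over all tumors (1 at an unadjusted P value under 0.05) and 2 rose by limma-voom, S100a9 and Retnlg (3.57 on the log2 scale, adjusted P value 0.00692, against 0.83 and 0.258 by limma). Ly6g, a defining marker, was at 0 in every MP tumor. With the WT ovaries included it did not reach 1 TPM in 3 libraries, so it was too low for the test. S100a9, which encodes a calcium-binding protein abundant in neutrophils, averaged 2.78 ± 0.331 TPM over the ovaries (SD, n = 3) and was at 2.46, 11.8 and 38.7 TPM (lowest, median and highest) in MP tumors, with 9 of 10 tumors above every ovary. Its log2 fold change of 1.69 (SE 0.63) had an adjusted P value of 0.0757, or 0.0291 without MP tumor 10, 0.0356 under quantile normalization and 0.0298 by limma-voom. Within library series 1 it rose by 2.02 on the log2 scale (adjusted P value 0.000784), as did its partner gene S100a8 (1.82, adjusted P value 0.00849). In that fit 2 of the 5 neutrophil markers tested rose and 1 fell, beside 6.44% of all genes higher and 57.3% lower. The part of neutrophils in the Lyz2 level was not tested.

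By median TPM, the RNAs of the C1q chains followed Lyz2 in both groups, although C1qc exceeded Cd68 in only 5 of 10 tumors and 2 of 3 ovaries. C1qa (ENSMUSG00000036887) was at 231, 189 and 284 TPM in WT ovaries and at 42.7, 133 and 262 TPM (lowest, median and highest) in MP tumors. C1qb (ENSMUSG00000036905) was at 348, 264 and 341 TPM in WT ovaries and at 125, 223 and 384 TPM in MP tumors. C1qc (ENSMUSG00000036896) was at 158, 119 and 166 TPM in WT ovaries and at 21.4, 75.5 and 156 TPM in MP tumors. Of the 10 tumors, 9 lay below every ovary in C1qa, 7 in C1qb and 8 in C1qc, and each chain overlapped between groups. None of these chains passed the test, with log2 fold changes of −0.97 (SE 0.44, adjusted P value 0.139), −0.61 (SE 0.35, adjusted P value 0.230) and −1.03 (SE 0.48, adjusted P value 0.149) in that order, and under median-of-ratios scaling they were −0.25, 0.11 and −0.31 (−0.23, 0.12 and −0.29 by limma-voom). C1qb varied least among tumors of all 10 genes, by 3.07-fold from the lowest to the highest.

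MP tumors 1 to 3 stood apart from the other libraries in the proportions of C1qb and C1qc, but not all of them in that of C1qa. In WT ovaries C1qa, C1qb and C1qc made up 33.4% ± 2.31, 45.5% ± 2.13 and 21.1% ± 0.343 of the summed C1q TPM (SD, n = 3). In MP tumors 1 to 3, C1qc made up 14.0%, 11.3% and 12.3%, and C1qb made up 53.9%, 66.1% and 66.5%. In MP tumors 4 to 10, C1qc was between 16.6% and 24.9% and C1qb between 44.6% and 53.1%. The 3 tumors thus lay below all other libraries in C1qc and above all others in C1qb. C1qa made up 32.1%, 22.6% and 21.2% in them and 25.8% to 38.1% in MP tumors 4 to 10, so that MP tumor 1 lay within the range of the ovaries. Merged exon lengths are 1040 bases for C1qa, 1088 for C1qb and 1931 for C1qc, and the part of length in these proportions was not tested.

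**Figure D2:**
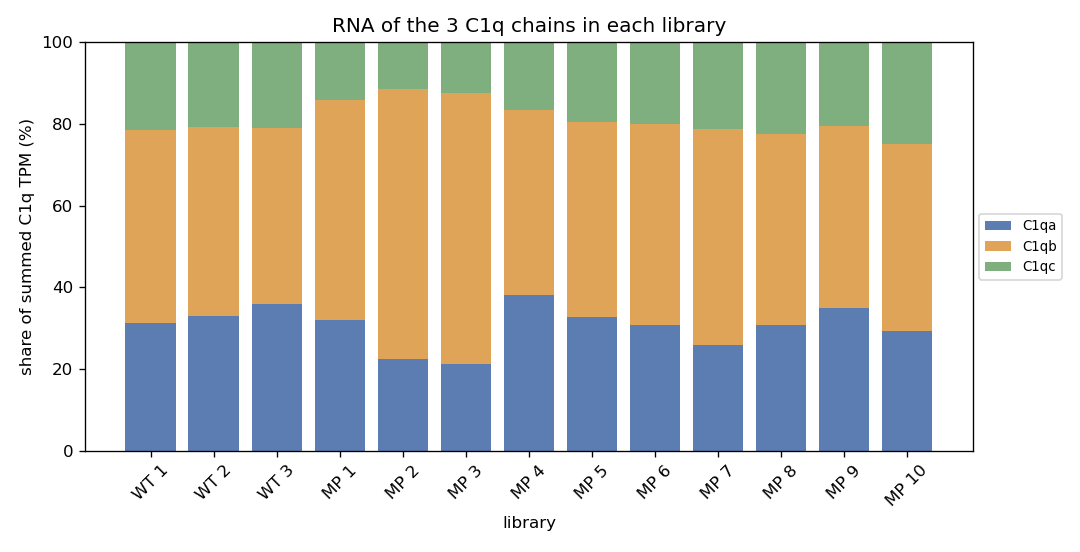
Share of C1qa, C1qb and C1qc in the summed C1q TPM (%, stacked to the full height) in each of the 13 libraries. C1qc is between 11.3% and 14.0% in MP tumors 1 to 3 and between 20.8% and 21.4% in WT ovaries.

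Of 9 genes listed as partners of C1q in the complement pathway, 8 were tested, 2 fell and 0 rose, beside 14.3% lower among all genes, with a median log2 fold change of −1.89. C1s1, a protease that C1q carries, fell by 3.98 on the log2 scale (adjusted P value 0.0292), and Serping1, the inhibitor of that protease, fell by 4.02 (adjusted P value 0.0346). Without any 1 of the WT ovaries these adjusted P values were 0.0989 to 0.134 for C1s1 and 0.106 to 0.140 for Serping1, which also missed the threshold without MP tumor 8 (0.0536), with a pseudocount of 0.1 (0.0551) and without a filter on low values (0.0530). C2, the component that C1s cleaves, was below every ovary in 9 of 10 tumors and did not pass (−2.76, SE 0.97, adjusted P value 0.0642, or 0.0131, 0.0360 and 0.0409 without MP tumor 4, 5 or 9 and 0.00970 by limma-voom). Within library series 1 C2 fell by 4.15 on the log2 scale (adjusted P value 3.24e-05 by limma). In that fit 7 of the 8 genes tested fell, beside 57.3% of all genes.

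The mannose receptor gene Mrc1 (ENSMUSG00000026712, chromosome 2, 14229392 to 14332057) was at 17.8, 17.9 and 21.6 TPM in WT ovaries. Its lowest, median and highest values in MP tumors were 1.75, 6.66 and 20.3 TPM. It was below every ovary in 9 of 10 tumors, and MP tumor 5 lay within the range of the ovaries. The log2 fold change of −1.43 (SE 0.59) had an adjusted P value of 0.105, and it lay between −0.84 and −0.52 under median-of-ratios scaling, quantile normalization, length trend removal and limma-voom.

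Cd163, which encodes the scavenger receptor for hemoglobin bound to haptoglobin, was the least abundant of the 10 genes. The gene (ENSMUSG00000008845) lies on chromosome 6 at 124304656 to 124330527. It was at 1.12, 2.41 and 1.77 TPM in WT ovaries and at 0.132, 1.06 and 3.47 TPM (lowest, median and highest) in MP tumors, where 4 to 35 reads stood behind a value. With 5 tumors below and 2 above every ovary, Cd163 did not pass over all tumors (log2 fold change −0.28, SE 0.40, adjusted P value 0.629). The value ran from −0.46 without WT ovary 1 to −0.12 without WT ovary 2 (−0.17 without MP tumor 2), and the sign turned under median-of-ratios scaling (0.055), quantile normalization (0.37), limma-voom (0.081) and removal of the length trend (0.51).

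The order of the genes by level was similar in both tissues at its upper end. By median TPM, Lyz2, C1qb, C1qa, C1qc and Cd68 led in that order in WT ovaries and in MP tumors. Lyz2 exceeded C1qb, C1qb exceeded C1qa and C1qa exceeded C1qc in each of the 13 libraries. In WT ovaries, Csf1r, Adgre1, Mrc1, Csf1 and Cd163 followed, and of all neighbors in the order only the ranges of C1qb and C1qa and those of C1qc and Cd68 overlapped. In MP tumors, Adgre1 (median 11.1 TPM), Csf1r (9.12 TPM), Csf1 (7.16 TPM) and Mrc1 (6.66 TPM) were not separated, since all neighboring ranges overlapped and Adgre1 exceeded Csf1r in only 5 of 10 tumors.

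MP tumor 5 was the highest tumor in 7 of the 10 genes (Csf1r, Adgre1, C1qa, C1qb, C1qc, Mrc1 and Cd163), exceeded every ovary in 5 and was below all ovaries in 0. Among all genes tested, this tumor was above every ovary in 37.6% and below in 45.6%. MP tumor 2 was the lowest tumor in 8 of the 10 genes and below every ovary in 9, beside 80.9% of all genes tested. MP tumors 3 and 4 were also below every ovary in 9 of the 10 genes, beside 71.0% and 62.2% of all genes. MP tumors 1, 6, 9 and 10 were below every ovary in 8 genes, beside 67.1%, 57.9%, 42.4% and 45.3% of all genes. The count was 7 for MP tumor 8, beside 55.9%, and 6 for MP tumor 7, beside 62.6%.

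When the comparison was kept within library series 1 (3 MP tumors and 3 WT ovaries), 8 of the 10 genes fell. In that comparison 57.3% of all genes fell and 6.44% rose, and the median log2 fold change was −1.19 over all genes and −1.54 over the 10. Csf1r fell by 3.97 on the log2 scale (SE 0.37, adjusted P value 7.56e-05) and Csf1 by 3.09 (SE 0.30, adjusted P value 8.87e-05). These were the largest falls, followed by C1qc (−1.82, adjusted P value 0.0109) and Mrc1 (−1.82, adjusted P value 0.0123). Cd68 (−1.56), C1qa (−1.51), Adgre1 (−1.48) and Cd163 (−0.90) also passed, with adjusted P values from 0.00213 to 0.0356. C1qb did not pass (−0.65, adjusted P value 0.187), nor did Lyz2, whose value was on the other side of 0 (0.55, adjusted P value 0.429). Without MP tumor 2 the count was 5 of 10 (Cd68, C1qa and Cd163 no longer passed), when 56.5% of all genes fell. Without MP tumor 3 it was 6 of 10, beside 55.1%, and without MP tumor 1 it was 8 of 10, beside 61.7%. This comparison shares all its libraries with the one over all tumors.

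**Figure D3:**
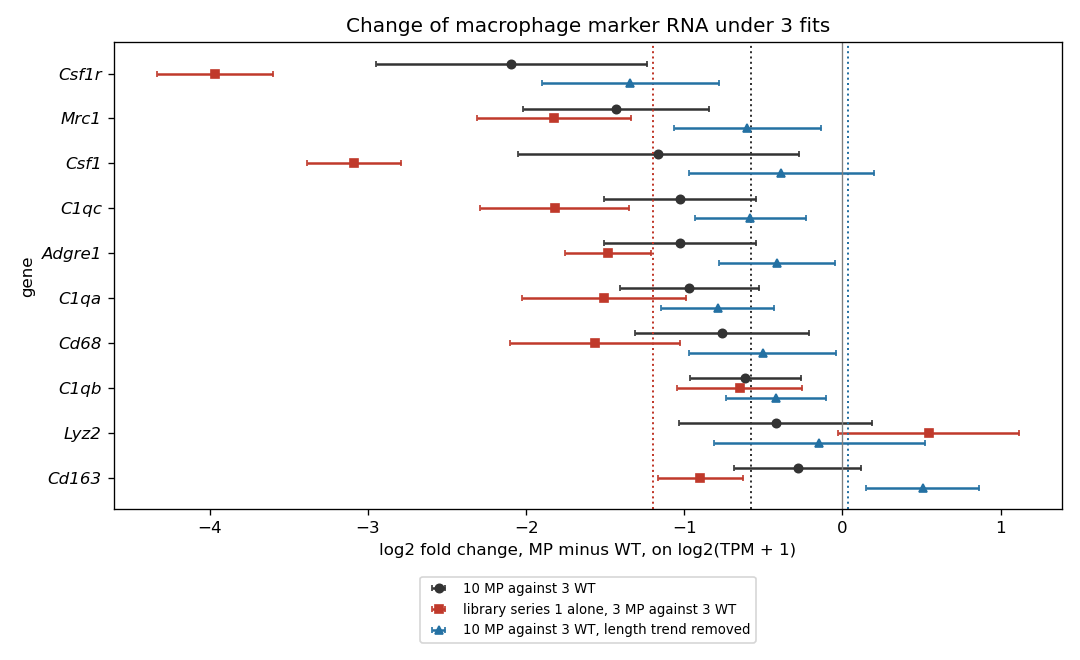
Log2 fold change (MP minus WT, on log2(TPM + 1)) of each macrophage gene with its SE, for 10 MP tumors against 3 WT ovaries, for library series 1 alone (3 against 3) and for all libraries after a trend with gene length was removed. Dotted lines give the median over all genes tested in the same fit (−0.58, −1.19 and 0.04). Csf1r and Csf1 stand farthest below in library series 1.

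MP tumors 1 to 3 were also set against MP tumors 4 to 10, since a difference there lies within 1 condition. Of all genes tested, 30.1% were lower and 1.29% higher in MP tumors 1 to 3, and of the macrophage genes 2 were lower and 0 higher. These were Csf1r (log2 fold change −2.68, SE 0.60, adjusted P value 0.00498) and Csf1 (−2.75, SE 0.64, adjusted P value 0.00624). Csf1r was between 0.774 and 3.25 TPM in MP tumors 1 to 3 and between 5.53 and 55.2 TPM in the others, with no overlap. Lyz2 had the opposite sign (1.38, SE 0.52, adjusted P value 0.0589), and C1qb was close to 0 (−0.05, SE 0.40, adjusted P value 0.934). Fold changes in this contrast ran with gene length across genes (Spearman's rho −0.455 over 17277 genes, which are not independent). Csf1r and Csf1 have merged exons of 4885 and 5281 bases. The longer genes Cd163, with 5461 bases, and Mrc1, with 6371 bases, were at −0.88 (adjusted P value 0.125) and −0.56 (adjusted P value 0.505). How far length accounts for these values was not tested. With the trend removed, Csf1r was at −1.50 (adjusted P value 0.0539) and Csf1 at −1.54 (adjusted P value 0.0647), neither past the threshold, and Lyz2 rose (1.72, adjusted P value 0.0462) beside 8.9% of all genes lower and 8.76% higher. Under median-of-ratios scaling, Csf1r (−1.75) and Csf1 (−2.02) remained lower, and Lyz2 (2.70) and C1qb (1.27) were higher, beside 9.87% lower and 13.7% higher of all genes.

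Within a library, a ratio to Csf1r does not depend on how libraries are scaled to each other, and MP tumors 1 to 3 stood apart in most of these ratios. C1qb per Csf1r was 7.29 to 9.18 in WT ovaries, 85.6 to 243 in MP tumors 1 to 3 and 6.97 to 27.7 in MP tumors 4 to 10. Lyz2 per Csf1r was 24.1 to 74.7, 421 to 3763 and 26.7 to 175 in the same sets. Adgre1, the F4/80 gene, gave a ratio of 0.724 to 0.769, 3.58 to 9.84 and 0.732 to 1.70. Cd68 per Csf1r was 1.89 to 5.40, 17.3 to 52.8 and 2.13 to 12.7. Mrc1 per Csf1r was 0.457 to 0.580, 2.26 to 5.12 and 0.363 to 0.689. C1qa per Csf1r was 5.22 to 7.64, 51.0 to 77.2 and 4.75 to 15.9, and C1qc per Csf1r was 3.28 to 4.46, 22.3 to 45.04 and 2.83 to 11.02. Thus MP tumors 1 to 3 held more of these 7 RNAs per Csf1r RNA than any other library. Their Csf1r values rested on 21 to 114 reads. In the fit within library series 1, 85.2% of all genes were higher relative to Csf1r, so the separation is not particular to these RNAs. The share of all genes without overlap in this ratio was not computed. Csf1 per Csf1r did not separate them, at 0.313 to 0.417 in WT ovaries, 0.352 to 0.564 in MP tumors 1 to 3 and 0.211 to 1.46 in the rest. Nor did Cd163 per Csf1r, at 0.0289 to 0.0664, 0.170 to 0.502 and 0.0264 to 0.412.

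**Figure D4:**
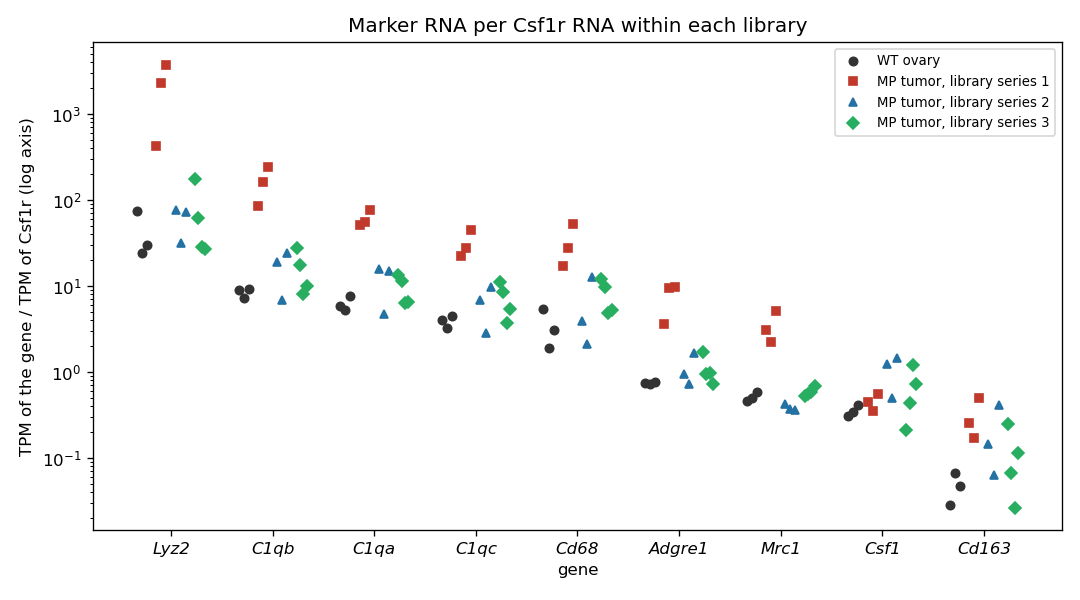
TPM of the other 9 macrophage genes divided by TPM of Csf1r in the same library (log axis), for 3 WT ovaries and for MP tumors of library series 1, 2 and 3. Points are libraries. MP tumors of series 1 lie above all other libraries in Lyz2, C1qb, C1qa, C1qc, Cd68, Adgre1 and Mrc1, and overlap with MP tumors of the other series in Csf1 and Cd163. In the fit within series 1, 85.2% of all genes were higher relative to Csf1r in MP tumors.

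The test relative to Csf1r used log2(TPM + 1) of a gene minus that of Csf1r. Because of the added 1, this difference is not the log2 of the ratio above and does depend on scaling. Over all tumors it passed for 0 of the other 9 genes, beside 20.6% of all genes higher and 0.799% lower relative to Csf1r. At an unadjusted P value under 0.05 the limma count was 1 of 9, beside 45.8%. The median of this difference was 1.13 for the 9 genes and 1.52 for all genes. Within library series 1, 9 of 9 rose relative to Csf1r, as did 85.2% of all genes, with Lyz2 (4.51) and C1qb (3.32) the largest and Csf1 (0.88, adjusted P value 0.0393) the smallest. Without MP tumor 5, 2 of 9 passed over all tumors, beside 56% of all genes higher. Relative to Ptprc, the gene of the leukocyte antigen CD45, 0 of 10 genes passed (18% of all genes did, and 0 of 10 had an unadjusted P value under 0.05 by limma, beside 34.4% of all genes). Ptprc itself averaged 3.52 ± 0.956 TPM over the ovaries and 1.50 ± 0.862 TPM over the tumors (SD, n = 3 and 10, log2 fold change −0.90, SE 0.36, adjusted P value 0.0920, or 0.0492 and 0.0487 without MP tumor 5 or 9), and 0.26 on the log2 scale with the length trend removed.

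Likeness to Csf1r was described by Pearson's r on log2(TPM + 1) over the 10 tumors, which differ in depth and library series. The median over 17192 genes was 0.58, so a positive r was common. Csf1 had the largest r of the other macrophage genes (0.90, percentile 96.2), followed by C1qc (0.87, percentile 91.3), Adgre1 (0.81), C1qa (0.81), Cd68 (0.75), Mrc1 (0.74), Cd163 (0.68) and C1qb (0.46, percentile 40.1). Lyz2 was the only one below 0 (−0.35, percentile 7.34). With values centered within library series, Mrc1 came to 0.96, Adgre1 to 0.89, C1qa to 0.80, C1qc to 0.78, Csf1 to 0.75, C1qb to 0.73, Cd68 to 0.60, Lyz2 to 0.36 and Cd163 to 0.33. Without MP tumors 2 and 5, the 2 farthest from the median of Csf1r, the r of Csf1 was 0.83, that of Mrc1 0.46, that of Cd163 0.26 and that of C1qb −0.13. Over the 45 pairs among the 10 genes, r ran from −0.57 (Csf1 and Lyz2) to 0.92 (C1qa and C1qc), with a median of 0.65.

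The genes most like Csf1r among those with a mean of at least 5 TPM in tumors were Stab1, Dll4, Dock6, Cblb, Fkbp14, C5ar1, Tmem2 and Pecam1, with r from 0.97 to 0.98. Stab1 encodes a scavenger receptor of sinusoidal endothelium and of macrophages, C5ar1 the receptor for the complement fragment C5a on myeloid cells, and Dll4 and Pecam1 are endothelial genes. Beside these, the summed TPM of 5 endothelial markers was 238 to 252 in WT ovaries and 4.07 to 178 in MP tumors, lowest in MP tumor 3 and highest in MP tumor 5. Of these markers 3 fell (Kdr, Tek and Prox1) and 0 rose, beside 14.3% lower among all genes, and 5 fell by limma-voom. Kdr did not pass without any 1 of the WT ovaries (0.0976 to 0.131) or with a pseudocount of 0.1 (0.0515), nor Prox1 with the length trend removed (0.113). The part of endothelial content in these values was not tested.

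A longer list of macrophage genes held 27 symbols, of which 24 were tested, 5 fell and 0 rose (20.8% lower, beside 14.3% of all genes, and by limma-voom 8 fell and 2 rose), with a median log2 fold change of −1.42 (−0.58 over all genes). Its summed TPM was 1591 to 2663 in WT ovaries and 252 to 1323 in MP tumors, without overlap, and without Lgmn the sums overlapped (755 to 1908 and 171 to 941). Lgmn, which encodes the lysosomal protease legumain, fell from 1081 ± 496 to 203 ± 78.6 TPM (SD, n = 3 and 10), with 10 of 10 tumors below every ovary (log2 fold change −2.42, SE 0.39, adjusted P value 0.000500). Lyve1, a hyaluronan receptor of lymphatic vessels and of perivascular macrophages, fell by 2.99 on the log2 scale (adjusted P value 0.00142). Ctss, the gene of cathepsin S, fell by 2.33 (adjusted P value 0.0122, or 0.119 without WT ovary 1). Fcgr2b and Cx3cr1 also fell. Summed TPM of ovarian cell markers was also lower in every MP tumor than in every WT ovary. For granulosa cells it was 3225 to 5990 in WT ovaries and 4.46 to 1507 in MP tumors. For luteal and theca cells it was 25024 to 28130 and 7.44 to 824. All 5 granulosa and 4 of 5 luteal and theca markers fell, and their part in the fall of the macrophage list was not tested.

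Genes linked to macrophage activation were kept in separate lists for the alternative and the classical form, to be read beside 14.3% lower among all genes. In the list of alternative activation 6 genes were tested, 1 fell and 0 rose, with a median log2 fold change of −0.75. The one that fell was Tgfb1 (−2.59, adjusted P value 0.0388), which did not pass without any 1 of the WT ovaries or without MP tumor 1, 3, 4, 6 or 7 (0.0506 to 0.158), with a pseudocount of 0.1 (0.0773) or without a filter on low values (0.0543). Il4ra, a receptor chain for IL-4 and IL-13 (−2.25, adjusted P value 0.152, or 0.0228 without MP tumor 9), and Retnla (−1.17, adjusted P value 0.155, or 0.0436 without MP tumor 1) did not pass. Nos2, the inducible nitric oxide synthase of classical activation, fell from 40.4 ± 11.3 to 1.73 ± 1.29 TPM (log2 fold change −4.05, SE 0.49, adjusted P value 3.54e-05). It was the one of 7 classical genes tested that passed, and without it the summed TPM of this list overlapped between the groups (13.9 to 15.7 in WT ovaries and 4.35 to 39.5 in MP tumors). Il6, Il12b and Ptgs2 were too low for the test, as was Il10 in the other list. Nos2 is also made by cells other than macrophages.

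Of 8 monocyte chemokine and receptor genes tested, 0 passed by limma (2 at an unadjusted P value under 0.05) beside 16.8% of all genes, and 2 fell by limma-voom beside 33.4% called (limma median log2 fold change −0.22). Ccl2, the main chemoattractant of monocytes, averaged 8.24 ± 2.17 TPM over the ovaries and 14.9 ± 12.1 TPM over the tumors (SD, n = 3 and 10), and 5 tumors were above and 3 below every ovary (log2 fold change 0.47, SE 0.61, adjusted P value 0.601). Ccr2, its receptor on monocytes, was at 4.86 ± 0.515 and 1.71 ± 1.96 TPM (log2 fold change −1.38, adjusted P value 0.0766, or 0.0264 without MP tumor 5, 0.0265 without MP tumor 9 and 0.0324 by limma-voom). Cx3cl1 (−2.21, adjusted P value 0.107, or 0.0112 without MP tumor 5 and 0.0249 by limma-voom) and Ccl3 (−0.75, adjusted P value 0.266, or 0.23 on the log2 scale under quantile normalization) did not pass either.

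Lists of other cell types are to be read beside 14.3% lower and 2.51% higher among all genes. Of 5 general leukocyte genes 0 passed by limma (3 at an unadjusted P value under 0.05), with a median log2 fold change of −0.90. Of 4 T and NK cell genes tested 2 fell (Cd3d and Cd3g), of 3 B cell genes 0 passed (1 at an unadjusted P value under 0.05), of 5 dendritic cell genes 2 fell (Clec9a and Itgax) and of 3 mast cell genes 3 fell (Cpa3, Cma1 and Tpsb2). Within library series 1, 4 of 5 general leukocyte genes fell, beside 57.3% of all genes. There 3 of 4 T and NK cell, 2 of 3 B cell, 3 of 5 dendritic cell and 3 of 3 mast cell genes fell. For each of these lists the summed TPM of WT ovaries and MP tumors overlapped, except for mast cells (10.4 to 23.9 against 0 to 5.60). The overlap rested on Jchain for B cells (5.32 to 6.23 against 0.359 to 5.18 without it) and on Zbtb46 for dendritic cells (12.1 to 26.7 against 1.26 to 10.4 without it). Outside leukocytes, 2 of 5 fibroblast genes fell. MP tumors 9 and 5, the highest in Csf1, had the highest fibroblast sums (3369 and 1565 TPM, against 32.0 to 421 TPM in the other tumors). These tumors were also the highest in the endothelial and general leukocyte sums. MP tumor 7, with a fibroblast sum of 421 TPM, had Csf1 at 2.19 TPM. In MP tumor 6 the fibroblast sum was 70.7 TPM and Csf1 was at 8.07 TPM. All 5 oocyte genes and 2 of 5 epithelial genes fell, and 2 of 5 blood genes (Hbb-bs and Hbb-bt) rose. Without any 1 of the WT ovaries, Cd3d, Kdr, Pdgfra, Lum, Krt7, Hbb-bs and Hbb-bt no longer passed. Itgax did not pass without WT ovary 1 (0.0936), Lum without MP tumor 1, 2, 3, 4, 6 or 8 (0.0502 to 0.0551) and Krt7 without MP tumor 2, 3, 6, 7 or 8 (0.0535 to 0.0617). Under median-of-ratios scaling Cd3d (0.124), Lum (0.0597) and Krt7 (0.0968) did not pass, and with the length trend removed Cd3g (0.0852), Cd3d (0.281) and Krt7 (0.163) did not. By limma-voom 2 genes of dendritic cells rose and 3 fell, and 4 blood genes rose. The part of these cells in the macrophage values was not tested.

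**Figure D5:**
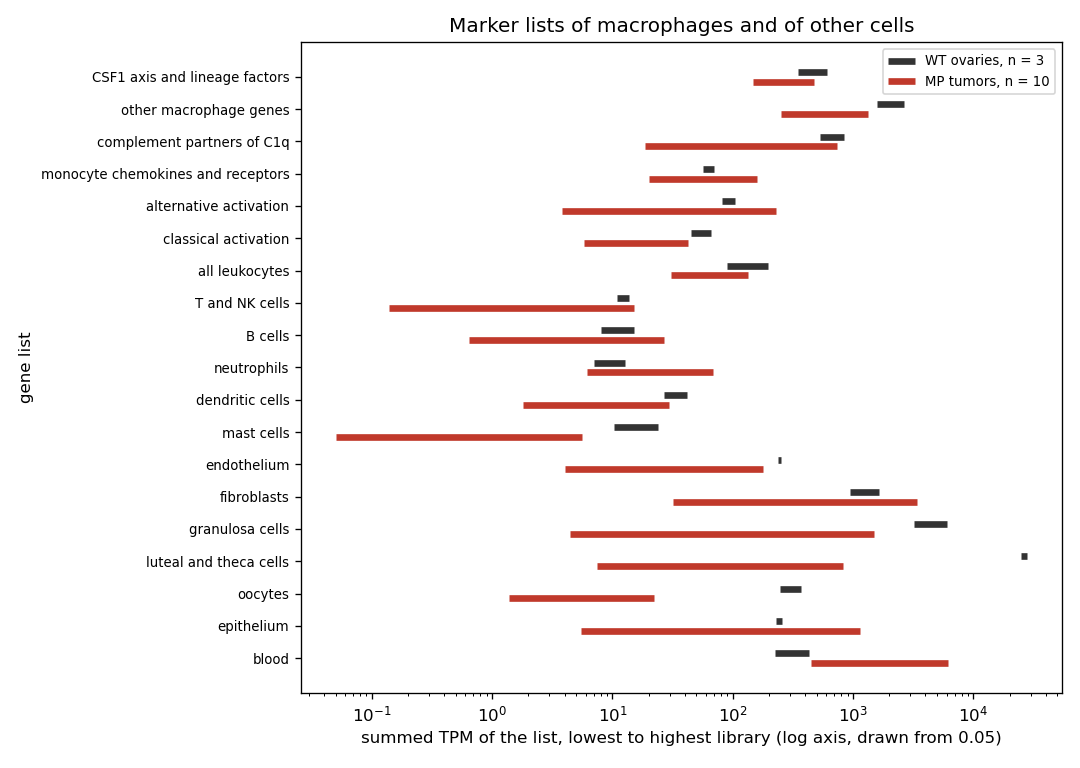
Summed TPM of each marker list (log axis, drawn from 0.05), as a bar from the lowest to the highest library of 3 WT ovaries and of 10 MP tumors. The bars of other macrophage genes and of classical activation do not overlap, which for each holds with Lgmn or Nos2 included but not without it, whereas those of neutrophils and of all leukocytes overlap.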

How the data were processed

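RNA-seq of bulk tissue from 3 WT ovaries and 10 MP EPO-GEMM tumors (polyA selection, single reads of 76 bp) was used as 1 table of TPM per gene and library, which the authors deposited with gene identifiers, positions and lengths. The submitters' processing notes list FastQC 0.11.5, Trimmomatic 0.36, STAR 2.5.3a, featureCounts 1.6.3 and the mouse build mm10 (GRCm38), whereas the protocol text names a human build, HTSeq and RPKM. In the table, 96% of genes have the start and end of GENCODE release 21. Samples were matched to columns by their labels, and 0 columns belonged to other samples.

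Reads were worked back from TPM times gene length, whose values were whole multiples of their smallest step (tolerance 0.05). One read in 1 kb was worth 0.0513 to 0.790 TPM, which limits low values most in MP tumors. Intervals for counting error were not computed. Library pairs of 1 group differed by more than sampling noise.

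Genes that reached 1 TPM in 3 or more libraries were tested on log2(TPM + 1) with limma 3.58.1 (trended and robust, two-sided, R 4.3.3), without covariates, with Benjamini-Hochberg adjustment of P values over all genes tested. A fold change on this scale understates changes of low genes. For the length-corrected fit, a trend of log2(TPM + 1) with gene length was removed from each library. The 10 genes and the gene lists were chosen with earlier results of these data known. The rule for named genes took all 10 genes, from each other list the 3 genes with the largest moderated statistic, Il34, Ptprc and Ccl2 in any case, and the 8 genes most like Csf1r, but not every gene it took is printed. Genes named without values complete a count. Some listed genes are not reported here, and the list counts and sums are without them. Alternatives varied the pseudocount, filter, scaling, length trend, library series, replicate block and single libraries. The code was tested on simulated data.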

Additional observations from a re-analysis of the deposited data

How the results depend on the processing

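The balance of all genes and the sign of some weak changes differed between scaling, length trend and model settings. Genes higher and lower in MP tumors numbered 433 and 2463 as reported, 1292 and 1887 under median-of-ratios scaling, 1904 and 2091 under quantile normalization, 1806 and 1780 with the length trend removed, and 2760 and 3018 by limma-voom (5778 in all), whose medians over all genes were between −0.03 and 0.08. Cd163 turned to 0.055, 0.37, 0.51 and 0.081 in that order of settings, C1qb to 0.11 (median-of-ratios) and 0.12 (limma-voom), Lyz2 to 0.30 and 0.31 in these, and Cd68 to 0.023 (limma-voom). Of the other named genes, Ccl3 turned to 0.23, Cd86 to 0.047 and Cd79a to 0.10 under quantile normalization, and Ptprc to 0.26 with the length trend removed. The cause was not tested.

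Library series changed the counts most. Within series 1 alone, 11014 genes and 8 macrophage genes passed, with library series as a covariate 9428 and 7, and Lyz2 was at 0.55 in both. Fold changes are the same in both fits and rest on MP tumors 1 to 3. Relative to Csf1r, 9 and 8 of 9 passed in these fits (85.2% and 72.8% of all genes were higher), and 1 of 9 with a pseudocount of 5 (37.8%). Between MP tumors 1 to 3 and the other tumors, 3038 genes passed under quantile normalization and 3050 with the length trend removed, instead of 5418. By likeness to Csf1r, 1 macrophage gene reached percentile 95, compared with 3 when values were centered within series and 0 without MP tumors 2 and 5.

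Leaving out single libraries gave 1279 (without WT ovary 3) to 3763 genes (without MP tumor 9) over all tumors, also 1293 without WT ovary 1 and 1348 without WT ovary 2, and 0 to 1 macrophage genes. Relative to Csf1r it gave 0 to 2, and between tumors 3173 (without MP tumor 2; 3555 without MP tumor 3) to 5779 genes. For Lyz2 the values ran from −0.77 (without WT ovary 2) to 0.095 (without WT ovary 1). In settings chosen after seeing the data, 2 macrophage genes passed without MP tumors 2 and 5 (Csf1r, adjusted P value 0.0376, and C1qa, 0.0496, by limma). Within series 1 without 1 of its tumors, 11712, 11937 and 10404 genes and 8, 5 and 6 macrophage genes passed (without MP tumors 1, 2 and 3, respectively), and Lyz2 was at 0.84, 0.65 and 0.14.

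Replicate numbers 1 to 3 are shared by WT ovaries and MP tumors, but no label pairs them, and deviations of equal numbers correlated at −0.10, −0.02 and 0.00. A block on the replicate number, fitted within series 1, gave 10933 genes, 8 macrophage genes, 8 of 9 relative to Csf1r (beside 85.1% of all genes) and 0.55 for Lyz2. Few reads limit Cd163, Csf1 and Csf1r most in MP tumors.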
